A study of Mus musculus with 16 samples.

Results

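Sbsn (suprabasin), Dmkn (dermokine) and Krtdap (keratinocyte differentiation-associated protein) are 3 adjacent genes on mouse chromosome 7 that encode secreted proteins of stratified epithelium. They were followed through 16 RNA sequencing libraries of mTEC, medullary thymic epithelial cells, which present self antigens to T cells developing in the thymus. The 3 genes were taken by symbol from the 43432 genes counted. They were selected on their levels across the 4 sorted populations in earlier results of these same libraries, so their own levels and differences are given as a description, without a p-value.

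All mice were C57BL6 and carried Aire-CreERT2 and the Ai14 reporter. Aire is the transcription factor that drives the expression of many tissue-restricted antigens in mTEC. Cre driven by Aire, once activated by tamoxifen, switches on a red fluorescent protein (RFP) for good, so the label is carried by cells with active Aire during the pulse and by their progeny. RFP- cells can still have expressed Aire before or after the pulse, or escaped recombination. Mice of mixed sex, 5 to 6 weeks of age, received 2 mg of tamoxifen and were analysed 7 days later, and each library came from a pool of 12 thymi. CD45- EPCAM+ cells were sorted on RFP and on surface MHC class II into RFP+ MHCIIlo, RFP- MHCIIlo, RFP+ MHCIIhi and RFP- MHCIIhi cells, with 4 libraries each.

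Cells of stratified epithelium such as epidermis divide in a basal layer and differentiate as they move up through suprabasal layers. The keratins and junction proteins of the basal layer are then replaced, and a cornified envelope and secreted products are made. The 3 genes are transcribed late in this course, and their products are released from suprabasal keratinocytes. In the thymus, mTEC that have passed through an Aire-expressing state can take on keratinocyte-like features, which is the biology that the RFP label and the MHCIIlo gate address.

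In GRCm38 coordinates (GENCODE M21), Sbsn (ENSMUSG00000046056) lies on chromosome 7 from 30751471 to 30756134. Dmkn (ENSMUSG00000060962) lies from 30763756 to 30781063 and Krtdap (ENSMUSG00000074199) from 30787896 to 30791097. All are protein-coding genes on the + strand, within 39.6 kb, with gaps of 7.62 and 6.83 kb between them. A separate annotated gene that also carries the name Tmem147os overlaps Sbsn on the same strand and was not analysed here. Reads from the pair cannot be told apart by position where they overlap.

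The promoters are shown because genes with the same profile across cell populations can be read side by side at their starts. All 3 genes matched the RefSeq promoter table (GRCm38.p6), Dmkn with separate starts 5′ and within the gene. Each sequence is given 5′ to 3′ on the + strand, from 250 bases before the RefSeq start to 30 bases after it. Capitals mark matches to the AP-1 motif TGANTCA, the site bound by Fos and Jun proteins.
Sbsn, chr7:30751221-30751500: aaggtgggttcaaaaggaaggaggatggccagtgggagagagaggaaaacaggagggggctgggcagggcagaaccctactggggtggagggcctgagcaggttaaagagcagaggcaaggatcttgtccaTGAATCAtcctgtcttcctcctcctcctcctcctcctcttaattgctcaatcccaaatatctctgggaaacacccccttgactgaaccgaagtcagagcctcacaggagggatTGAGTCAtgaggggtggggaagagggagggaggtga
Dmkn, upstream start, chr7:30763506-30763785: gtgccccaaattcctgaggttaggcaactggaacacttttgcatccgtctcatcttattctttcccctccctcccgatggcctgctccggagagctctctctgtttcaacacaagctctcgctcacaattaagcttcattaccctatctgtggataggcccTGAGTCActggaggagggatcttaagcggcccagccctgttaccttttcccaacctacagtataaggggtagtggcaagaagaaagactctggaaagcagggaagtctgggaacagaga
Dmkn, internal start, chr7:30776155-30776434: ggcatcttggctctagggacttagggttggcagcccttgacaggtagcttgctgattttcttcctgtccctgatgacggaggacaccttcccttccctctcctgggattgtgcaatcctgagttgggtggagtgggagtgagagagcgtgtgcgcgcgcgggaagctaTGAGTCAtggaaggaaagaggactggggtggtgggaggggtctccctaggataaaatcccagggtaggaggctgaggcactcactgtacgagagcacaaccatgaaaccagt
Krtdap, chr7:30787655-30787934: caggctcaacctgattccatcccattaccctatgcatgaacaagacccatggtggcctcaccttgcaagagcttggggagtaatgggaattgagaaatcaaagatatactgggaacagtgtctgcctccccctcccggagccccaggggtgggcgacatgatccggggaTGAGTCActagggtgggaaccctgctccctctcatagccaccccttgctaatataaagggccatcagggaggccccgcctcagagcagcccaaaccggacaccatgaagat
The motif was found in all 4 windows. Counted from the RefSeq start, with -1 as the base before it, the matches begin at -119 and -6 in Sbsn. They begin at -89 in the upstream and -82 in the internal Dmkn window, and at -81 in Krtdap. The match reads TGAATCA at -119 of Sbsn and TGAGTCA at the other 4 places. In windows of 250 bases before to 50 after the start, on both strands, TGANTCA occurred in 7.81% of the 32817 windows of all genes. It occurred in 6 of 42 windows (14.3%) of the genes within 250 kb of the cluster, in 8 of 28 (28.6%) of a list of late keratinocyte differentiation genes and in 2 of 13 (15.4%) of a list of secreted suprabasal genes.

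Other motifs were searched in the same windows on both strands. A Kruppel-like motif, CCNCNCCC, was present in all 4 windows and in 49.5% of all windows. It begins at 6 in Sbsn, at -187 and -50 in the 2 Dmkn windows, and at -126 and -122 in Krtdap, where the pair overlap each other. A C/EBP motif, TTGCNNAA, was present at -77 in Sbsn and at -231 and -143 in the Dmkn windows, and in 10.8% of all windows. TATAAA was found only in Krtdap, at -30, against 13.6% of all windows and 35.7% of those of the late differentiation list. The Grainyhead motif AACCNGTT had no match in the 4 windows and 1 in 2.08% of all windows. No AP-1 match overlapped a match to another motif, and a match of letters is not evidence of binding.

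The levels of all 3 genes were highest in RFP+ MHCIIlo cells, followed by RFP+ MHCIIhi, RFP- MHCIIlo and RFP- MHCIIhi cells. Levels are CPM, counts scaled to a fixed library total, after TMM normalisation, a scaling of library sizes.

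Sbsn was at 339, 257, 232 and 179 CPM in the RFP+ MHCIIlo libraries, against 47.4, 33.9, 36.0 and 32.5 CPM in the RFP- MHCIIlo libraries. It was at 88.2, 86.6, 89.9 and 76.5 CPM in RFP+ MHCIIhi, against 22.9, 17.9, 15.1 and 18.4 CPM in RFP- MHCIIhi. The RFP+ libraries lay above the RFP- libraries in each gate with no overlap, and the widest spread was among the RFP+ MHCIIlo libraries.

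Dmkn was at 405, 333, 395 and 363 CPM in the RFP+ MHCIIlo libraries, against 58.6, 42.2, 49.9 and 42.1 CPM in the RFP- MHCIIlo libraries. It was at 174, 135, 131 and 132 CPM in RFP+ MHCIIhi, against 22.1, 19.5, 16.7 and 16.8 CPM in RFP- MHCIIhi. The groups again did not overlap, and replicate 1 stood above the other RFP+ MHCIIhi libraries.

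Krtdap was at 1003, 813, 822 and 779 CPM in the RFP+ MHCIIlo libraries, against 115, 93.8, 74.4 and 95.0 CPM in the RFP- MHCIIlo libraries. It was at 332, 258, 263 and 246 CPM in RFP+ MHCIIhi, against 36.7, 35.3, 36.3 and 35.3 CPM in RFP- MHCIIhi. It had the highest count of the 3 genes in every library, and the RFP- MHCIIhi libraries were nearly equal. In bulk libraries of this kind, more cells expressing a gene and more RNA per expressing cell cannot be told apart.

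**Figure D1:**
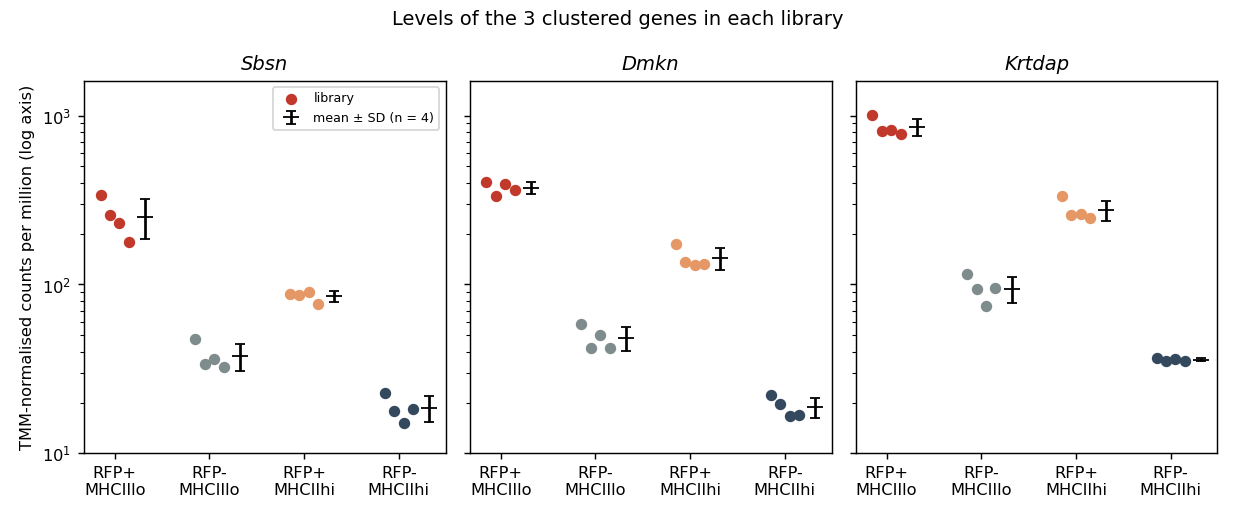
Each point is the TMM-normalised CPM (log axis) of Sbsn, Dmkn or Krtdap in a library of each sorted population, with the mean and SD of 4 libraries in black beside them. All 3 genes are highest in RFP+ MHCIIlo, where Krtdap averaged 854 CPM, and lowest in RFP- MHCIIhi, where it averaged 35.9 CPM.

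For each gene, no population overlapped the next in the order of levels. The mean of Sbsn was 2.95 times higher in RFP+ MHCIIlo than in RFP+ MHCIIhi, 2.28 times higher in RFP+ MHCIIhi than in RFP- MHCIIlo, and 2.02 times higher in RFP- MHCIIlo than in RFP- MHCIIhi. The same ratios were 2.62, 2.97 and 2.57 for Dmkn and 3.11, 2.90 and 2.64 for Krtdap. Among all 19617 genes tested, 1265 (6.45%) had group means in this order, and 155 (0.790%) had it with no overlap between neighbouring populations.

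Summed over the 3 genes, the level was 1480 ± 186 CPM in RFP+ MHCIIlo, 180 ± 27.8 CPM in RFP- MHCIIlo, 503 ± 62.3 CPM in RFP+ MHCIIhi and, lowest, 73.3 ± 5.93 CPM in RFP- MHCIIhi cells (SD, n = 4 each). In RFP+ MHCIIlo cells Krtdap ranked 38 among the 19617 genes by mean CPM, Dmkn 129 and Sbsn 259. In RFP- MHCIIhi cells the ranks were 4012, 6700 and 6736. Raw counts per library ran from 197 to 3136 for Sbsn, 217 to 4376 for Dmkn and 473 to 9398 for Krtdap. The smallest of these values thus rests on 197 reads.

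Per length of exon the 3 genes were far apart. In RPKM, which is CPM divided by exon length in kb, Krtdap was at 1258 ± 149, Dmkn at 171 ± 15.0 and Sbsn at 69.4 ± 18.4 in RFP+ MHCIIlo cells (SD, n = 4 each). In RFP- MHCIIhi cells they were at 52.9 ± 1.04, 8.56 ± 1.18 and 5.12 ± 0.885 RPKM. The lengths used were 679, 2192 and 3625 bases, the union of annotated exons, which can exceed the transcript made. Krtdap made up 84.0% of the summed RPKM in RFP+ MHCIIlo, 81.0% in RFP- MHCIIlo, 82.0% in RFP+ MHCIIhi and 79.5% in RFP- MHCIIhi cells. The share of Sbsn was 4.58% in RFP+ MHCIIlo against 6.04% in RFP- MHCIIlo, and 4.81% in RFP+ MHCIIhi against 7.67% in RFP- MHCIIhi. Dmkn held 11.4, 12.9, 13.2 and 12.8% in the same order of populations. Sbsn thus took a smaller mean share in the RFP+ than in the RFP- cells of each gate. In MHCIIlo its shares nearly met, at 5.32% in RFP+ replicate 1 and 5.34% in RFP- replicate 4. In MHCIIhi the nearest were 5.25% in RFP+ replicate 3 and 6.39% in RFP- replicate 3.

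Within MHCIIlo cells, all 3 genes were higher with the label. The log2 difference of RFP+ MHCIIlo against RFP- MHCIIlo was 2.75 (SE 0.16) for Sbsn, 2.96 (SE 0.12) for Dmkn and 3.18 (SE 0.12) for Krtdap. In this comparison 51.6% of all genes passed the edgeR quasi-likelihood test at an adjusted p under 0.05, 28.9% higher and 22.7% lower, and in 21.5% of genes all RFP+ MHCIIlo libraries lay above all RFP- MHCIIlo libraries. By size of the log2 difference, Krtdap ranked 249, Dmkn 319 and Sbsn 410 of 19617. The median over all genes was 0.07.

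Within MHCIIhi cells the difference with the label was 2.19 (SE 0.16) for Sbsn, 2.92 (SE 0.12) for Dmkn and 2.94 (SE 0.12) for Krtdap on the log2 scale. In this comparison 45.0% of all genes were called, 23.8% higher and 21.2% lower, and in 25.0% all RFP+ MHCIIhi libraries lay above all RFP- MHCIIhi libraries. Krtdap ranked 51, Dmkn 55 and Sbsn 284 by the difference, so Krtdap and Dmkn stood nearer the top here than among MHCIIlo cells, where their log2 differences were as large or larger.

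The difference with the label in MHCIIlo minus that in MHCIIhi was 0.04 (SE 0.16) for Dmkn, 0.24 (SE 0.16) for Krtdap and 0.56 (SE 0.21) for Sbsn on the log2 scale. Across all genes 34.1% were called for this difference of differences, 17.5% higher and 16.6% lower, with a median of 0.04. Dmkn ranked 9817 of 19617, near the middle of all genes.

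Between the gates, the log2 difference of RFP+ MHCIIlo against RFP+ MHCIIhi was 1.56 (SE 0.15) for Sbsn, 1.39 (SE 0.11) for Dmkn and 1.64 (SE 0.11) for Krtdap. There, 55.6% of all genes were called, 27.5% higher and 28.1% lower, and in 22.5% the libraries did not overlap in this direction. The log2 difference of RFP- MHCIIlo against RFP- MHCIIhi was 1.00 (SE 0.16) for Sbsn, 1.35 (SE 0.12) for Dmkn and 1.40 (SE 0.12) for Krtdap. There, 69.1% of all genes were called, 33.5% higher and 35.6% lower, and in 31.2% the libraries did not overlap in this direction. For each of the 3 genes, both differences between gates were smaller than both differences with the label. These comparisons share populations with each other and with those of the label, so their values are not independent.

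The 3 genes can be set beside 4 lists of keratinocyte genes. In MHCIIlo cells, 33 of 33 tested genes of the late differentiation list (cornified envelope, suprabasal keratins, barrier lipids) were higher with the label. Their median log2 difference was 2.98, with Lce3a, which had no read in RFP- MHCIIlo, set to a floor of 3 counts over that group. Of the secreted suprabasal list, 16 of 17 tested genes were higher and 0 lower (median 3.15). The shares of all genes were 28.9% higher and 22.7% lower. By edgeR, 0 genes of either list were lower also at an unadjusted p under 0.05, and likewise 0 by DESeq2 and by limma-voom. Sbsn, Dmkn and Krtdap, which are in neither list, lay close to these medians.

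In MHCIIhi cells the lists and the 3 genes stood further apart. Of the late differentiation list 26 of 33 genes were higher and 1 lower, with a median of 1.36. Of the secreted list 13 of 17 were higher and 0 lower, with a median of 0.96. The shares of all genes were 23.8% higher and 21.2% lower. For the secreted list the count lower was also 0 at an unadjusted p under 0.05 in edgeR, by DESeq2 and by limma-voom. The 3 genes were at 2.19 to 2.94. For the difference of differences the medians were 1.36 and 2.19, with 23 and 14 genes called higher, against 17.5% of all genes. The 3 genes were at 0.04 to 0.56 there.

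Among RFP- cells the secreted list was mostly lower in MHCIIlo than in MHCIIhi: 3 genes were higher and 13 lower, with a median log2 difference of -1.48. Of the 33 late differentiation genes 11 were higher and 13 lower, near the shares of 33.5% higher and 35.6% lower among all genes, with a median of -0.15. Sbsn, Dmkn and Krtdap were at 1.00 to 1.40. In the comparison of RFP+ MHCIIlo against RFP+ MHCIIhi the late list had 21 genes higher and 4 lower (median 0.79). The secreted list had 8 higher and 6 lower (median 0.21). There, 27.5% of all genes were higher and 28.1% lower, and the members had 1.39 to 1.64.

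**Figure D2:**
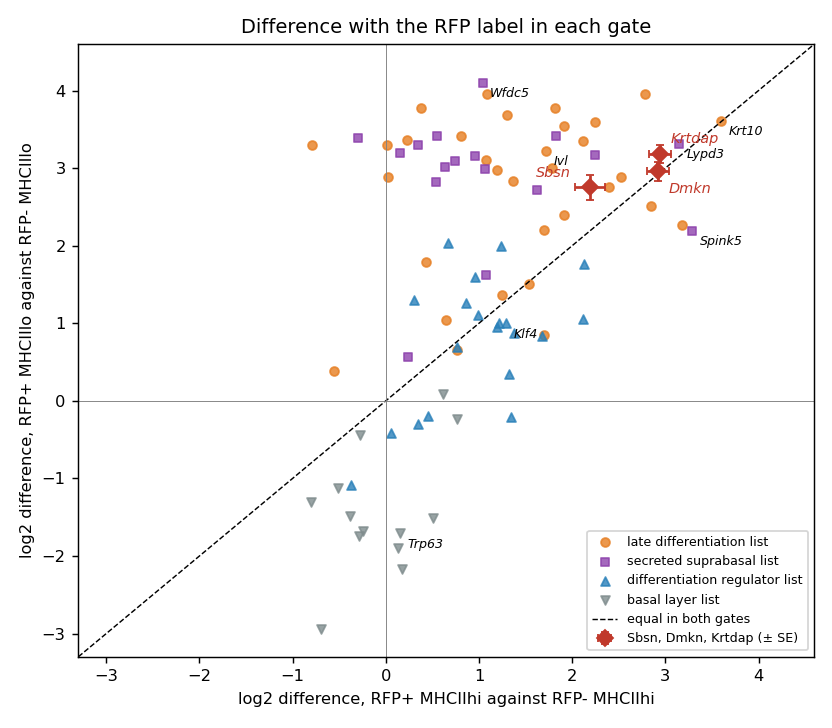
Each point is a gene, placed by its log2 difference with the RFP label in MHCIIhi cells (x axis) and in MHCIIlo cells (y axis), for 4 lists of keratinocyte genes and for Sbsn, Dmkn and Krtdap with SE bars. Dmkn and Krtdap lie near the dashed line of equal differences, as Krt10 and Lypd3 do, and Sbsn lies 0.56 (SE 0.21) above it. Most genes of the late differentiation and secreted lists also lie above the line. Lce3a, with no read in a population, is left out.

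Single genes of these lists show both patterns. Krt10, a suprabasal keratin, averaged 319 ± 84.2 CPM in RFP+ MHCIIlo against 26.4 ± 7.59 CPM in RFP- MHCIIlo, with 130 ± 21.4 CPM in RFP+ MHCIIhi against 10.7 ± 1.46 CPM in RFP- MHCIIhi (SD, n = 4 each). Its log2 difference with the label was 3.61 (SE 0.19) and 3.60 (SE 0.20) in the 2 gates, and the difference between them was 0.01 (SE 0.26, edgeR adjusted p = 0.99). Lypd3, a surface protein of suprabasal cells, had 3.31 (SE 0.12) and 3.15 (SE 0.12), with a difference of 0.16 (SE 0.17, adjusted p = 0.51). Spink5, a secreted inhibitor of kallikrein proteases, went the other way. It averaged 923 ± 110 CPM in RFP+ MHCIIlo against 202 ± 39.0 CPM in RFP- MHCIIlo, with 436 ± 65.8 CPM in RFP+ MHCIIhi against 44.5 ± 11.0 CPM in RFP- MHCIIhi. Its difference with the label was smaller in MHCIIlo by 1.10 (log2 difference of differences -1.10, SE 0.21, adjusted p = 3.1e-04).

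Slurp1, a secreted Ly6-family protein of keratinocytes, averaged 39.0 ± 2.16 CPM in RFP+ MHCIIlo against 3.64 ± 0.916 CPM in RFP- MHCIIlo, with 33.8 ± 4.65 CPM in RFP+ MHCIIhi against 9.46 ± 1.23 CPM in RFP- MHCIIhi. Its difference with the label was larger in MHCIIlo by 1.59 (SE 0.20, adjusted p = 1.5e-06). The corresponding value was 1.50 (SE 0.23, adjusted p = 2.5e-05) for Ivl, the cornified envelope protein involucrin. It was 2.37 (SE 0.46, adjusted p = 3.0e-04) for Lor, the envelope protein loricrin. It was 1.10 (SE 0.16, adjusted p = 7.2e-06) for Cst6, a secreted cysteine protease inhibitor. It was 3.07 (SE 0.50, adjusted p = 3.6e-05) for Wfdc5, a whey acidic protein family gene. For Flg, the filaggrin gene, it was 0.49 (SE 0.55, adjusted p = 0.52) at levels of at most a few CPM. All of these genes were called higher with the label in both gates, Wfdc5 in MHCIIhi cells with a log2 difference of 1.04 (adjusted p = 0.011) that was no longer called without RFP+ MHCIIhi replicate 1 (0.78).

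The order of the 3 genes, RFP+ MHCIIlo over RFP+ MHCIIhi over RFP- MHCIIlo over RFP- MHCIIhi, was found in the group means of 13 of 33 late differentiation genes (39.4%). These were Krt1, Krt10, Krt78, Ivl, Tgm1, Cnfn, Dsc1, Calml3, Sfn, Evpl, Elovl4, Abca12 and Rptn. It was found in 3 of 17 genes of the secreted suprabasal list (17.6%), which were Spink5, Lypd3 and Ly6g6c. That list takes in shed as well as secreted proteins, and Lypd3 is a surface protein. With no overlap between neighbouring populations, as for Sbsn, Dmkn and Krtdap, 8 genes of the late differentiation list and 3 of the secreted list had it. Of all genes, 6.45% had the order by group means and 0.790% had it with no overlap. The list genes named here were singled out after their values were seen.

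Of 20 genes for regulators of epidermal differentiation, 15 were higher and 3 lower with the label in MHCIIlo (median 0.98), and 17 higher and 1 lower in MHCIIhi (median 1.09). The shares of all genes were 28.9% higher and 22.7% lower in MHCIIlo, and 23.8% and 21.2% in MHCIIhi. Klf4, a Kruppel-like factor of the suprabasal layers, averaged 153 ± 19.0 CPM in RFP+ MHCIIlo against 76.2 ± 6.28 CPM in RFP- MHCIIlo, with 64.2 ± 3.81 CPM in RFP+ MHCIIhi against 26.3 ± 1.20 CPM in RFP- MHCIIhi. Its log2 differences with the label were 1.00 (SE 0.09) and 1.29 (SE 0.09). Zfp750, a nuclear regulator of late differentiation, had 0.95 (SE 0.10) and 1.19 (SE 0.10). For neither did the test of the difference between gates pass (adjusted p = 0.08 for Klf4 and 0.2 for Zfp750). Ovol1 had 2.03 (SE 0.17) in MHCIIlo and 0.67 (SE 0.14) in MHCIIhi. Grhl3, a Grainyhead-like factor, had 1.30 (SE 0.11) and 0.30 (SE 0.10). The Grhl3 call in MHCIIhi (adjusted p = 0.019) was lost without RFP- MHCIIhi replicate 3 (0.26) or 4 (0.23) or RFP+ MHCIIhi replicate 2 (0.29). For both, the difference was larger in MHCIIlo, by 1.35 (adjusted p = 3.7e-05) for Ovol1 and 1.00 (adjusted p = 1.8e-05) for Grhl3.

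The basal layer list had the other direction in MHCIIlo, where 11 of 13 genes were lower with the label and 0 higher (median -1.51). The count higher was 0 as well at an unadjusted p under 0.05 in edgeR, by DESeq2 and by limma-voom. In MHCIIhi 3 were higher and 7 lower (median -0.24). Of all genes, 28.9% were higher and 22.7% lower in MHCIIlo, and 23.8% and 21.2% in MHCIIhi. The count of basal genes higher in MHCIIhi was thus near the share of all genes. The basal keratin gene Krt14 averaged 97.5 ± 9.07 CPM in RFP+ MHCIIlo against 437 ± 64.4 CPM in RFP- MHCIIlo, with 116 ± 11.6 CPM in RFP+ MHCIIhi against 103 ± 14.7 CPM in RFP- MHCIIhi. The log2 difference with the label in MHCIIlo was -2.17 (SE 0.11) for Krt14, -1.51 (SE 0.11) for Krt5, the keratin it pairs with, and -1.71 (SE 0.08) for Trp63, the basal cell regulator p63. In MHCIIhi Krt5 was higher with the label (0.51, SE 0.11, edgeR adjusted p = 3.2e-04). Krt14 (0.17, adjusted p = 0.22) and Trp63 (0.15, adjusted p = 0.14) were not called there. None of the 13 basal genes had the order of group means seen in Sbsn, Dmkn and Krtdap.

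Over the 16 libraries the log2 levels of the 3 genes moved together, with Pearson's r of 0.987 for Sbsn and Dmkn, 0.990 for Sbsn and Krtdap and 0.995 for Dmkn and Krtdap. The libraries fall into 4 populations, and these values mostly describe the differences between them. After each population's mean was taken off, r was 0.59, 0.56 and 0.54. Replicate 1 was the highest of its population for Dmkn and Krtdap in all 4 populations and for Sbsn in 3, the exception being RFP+ MHCIIhi, where replicate 3 was highest. The pooled SD within populations was 0.26 for Sbsn, 0.19 for Dmkn and 0.18 for Krtdap on the log2 scale.

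The ratios between the genes shifted by population. The log2 CPM of Dmkn minus that of Sbsn was 0.61 ± 0.35 in RFP+ MHCIIlo, 0.36 ± 0.08 in RFP- MHCIIlo, 0.74 ± 0.19 in RFP+ MHCIIhi and 0.02 ± 0.13 in RFP- MHCIIhi (SD, n = 4 each). For Krtdap minus Dmkn it was 1.19 ± 0.13, 0.97 ± 0.28, 0.94 ± 0.05 and 0.94 ± 0.18 in the same order. The ratio of Krtdap to Dmkn thus varied less between populations than the ratio of Dmkn to Sbsn, which was smallest in RFP- MHCIIhi cells.

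Among all other tested genes, ranked by r with Krtdap, Dmkn ranked 2 and Sbsn 7, by r with Dmkn, Krtdap ranked 2 and Sbsn 10, and by r with Sbsn, Krtdap ranked 2 and Dmkn 6. By the smallest of the 3 values of r, the 10 named genes most like the cluster over 16 libraries were Ano9, Lypd3, Calm4, Adh1, Krt10, Acsl1, Galnt6, Atg9b, Krt80 and Pdzk1ip1, with values of 0.989 to 0.979. Of these, 2 (Ano9 and Lypd3) are also on chromosome 7. With Spearman's rho in place of Pearson's r, 2 of the 10 were among the 10 most alike, so the membership of the list depends on the measure.

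Ano9, a scramblase of the anoctamin family, had a log2 difference with the label of 2.63 (SE 0.13) in MHCIIlo and 2.09 (SE 0.13) in MHCIIhi. Calm4, a calmodulin-like protein of skin, had 3.62 (SE 0.16) and 3.34 (SE 0.16). Adh1, an alcohol dehydrogenase that acts on retinol, had 2.40 (SE 0.11) and 2.05 (SE 0.12). Krt80, an epithelial keratin, had 2.38 (SE 0.20) and 1.96 (SE 0.20). Atg9b, a gene of the autophagy machinery, had 2.82 (SE 0.15) and 2.83 (SE 0.17). The smallest in MHCIIlo were Galnt6, a glycosyltransferase, at 1.52 (SE 0.13) and Acsl1, an acyl-CoA synthetase, at 1.58 (SE 0.11), so genes with nearly the same profile spanned a wide range of sizes.

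**Figure D3:**
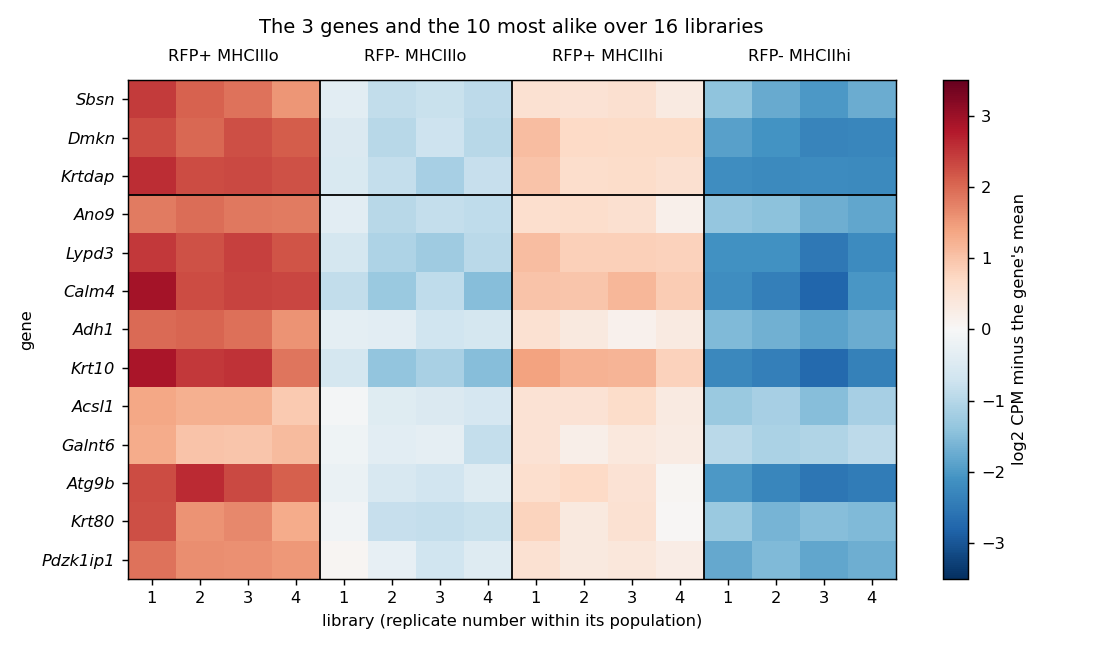
Rows are Sbsn, Dmkn and Krtdap and the 10 genes most like them, columns are the 16 libraries, and colour gives log2 CPM minus the gene's mean over all libraries. Every row is highest in RFP+ MHCIIlo and lowest in RFP- MHCIIhi, with RFP+ MHCIIhi above RFP- MHCIIlo. The 10 genes were picked for their likeness over these same libraries, so the shared order follows from that choice.

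The tested neighbours of the cluster had smaller fitted log2 differences with the label than its 3 genes in both gates. The 3 genes were selected on these same levels, so this order is not independent of their selection and was not tested. The neighbour with the largest fitted difference was 2200002J24Rik, at 1.96 (SE 0.72) in MHCIIlo and 1.81 (SE 0.38) in MHCIIhi. It lies 50.9 kb from the span and is not the nearest by position. Sbsn was at 2.75 (SE 0.16) and 2.19 (SE 0.16). Within 250 kb on either side, 49 other genes were annotated and 30 had enough reads to be tested. With the label in MHCIIlo, 14 of the 30 were higher and 0 lower (median log2 difference 0.47). Among all genes 28.9% were higher and 22.7% lower (median 0.07). At an unadjusted p under 0.05 in edgeR, 1 neighbour was lower, as was 1 by DESeq2 and 0 by limma-voom. In MHCIIhi 13 were higher and 3 lower (median 0.28), against 23.8% higher and 21.2% lower among all genes (median -0.02). The number of neighbours called there was 16 with all libraries. It fell to 10 without RFP- MHCIIhi replicate 1 or 4 or RFP+ MHCIIhi replicate 3. Between the gates the counts were near those of all genes. They were 9 higher and 9 lower of 30 in RFP+ MHCIIlo against RFP+ MHCIIhi (27.5% and 28.1% of all genes), and 10 higher and 11 lower in RFP- MHCIIlo against RFP- MHCIIhi (33.5% and 35.6%). For the difference of differences 5 of 30 were called higher and 2 lower, against 17.5% and 16.6% of all genes, and 11 in all without RFP+ MHCIIlo replicate 3. Within 100 kb, 11 genes were tested. With the label in MHCIIlo 4 of them were higher and 0 lower, against 28.9% and 22.7% of all genes. The count lower was also 0 at an unadjusted p under 0.05 in edgeR, by DESeq2 and by limma-voom.

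The nearest protein-coding genes on the Sbsn side were Gapdhs, Tmem147 and Atp4a. Gapdhs, a sperm glycolytic enzyme, averaged 2.89 ± 1.22 CPM in RFP+ MHCIIlo against 2.64 ± 0.349 CPM in RFP- MHCIIlo, a log2 difference of 0.12 (SE 0.29, edgeR adjusted p = 0.75), which turned to -0.21 without RFP+ MHCIIlo replicate 3 and to -0.00 with limma-voom. In MHCIIhi it had 0.79 (SE 0.28, adjusted p = 0.024), a call lost without RFP- MHCIIhi replicate 1 (0.67) or 4 (0.69) or RFP+ MHCIIhi replicate 2 (0.74) or 3 (0.76). The antisense gene Tmem147os overlaps Gapdhs, and reads of the pair cannot be told apart without strand. Tmem147, a membrane protein of the endoplasmic reticulum, averaged 26.8 ± 5.95 CPM in RFP+ MHCIIlo against 22.9 ± 4.89 CPM in RFP- MHCIIlo (0.23, SE 0.15, adjusted p = 0.21). In MHCIIhi it had 0.04 (SE 0.14, adjusted p = 0.84), which was -0.00 without RFP- MHCIIhi replicate 1 and -0.03 without RFP+ MHCIIhi replicate 4. Atp4a, the gastric proton pump, lies 25.9 kb from the span. It averaged 15.8 ± 3.84 CPM in RFP+ MHCIIlo against 5.87 ± 0.545 CPM in RFP- MHCIIlo, with 41.1 ± 3.79 CPM in RFP+ MHCIIhi against 28.4 ± 2.10 CPM in RFP- MHCIIhi. It was higher with the label in MHCIIlo by 1.44 (SE 0.15, adjusted p = 1.8e-08) and in MHCIIhi by 0.53 (SE 0.12, adjusted p = 5.7e-04), and unlike Sbsn it was highest in MHCIIhi cells.

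On the other side, Ffar2, a receptor for short-chain fatty acids 27.3 kb from Krtdap, averaged 7.26 ± 2.63 CPM in RFP+ MHCIIlo against 2.56 ± 0.993 CPM in RFP- MHCIIlo (1.49, SE 0.32, adjusted p = 4.3e-04). It averaged 1.78 ± 0.583 CPM in RFP+ MHCIIhi against 0.854 ± 0.350 CPM in RFP- MHCIIhi (1.02, SE 0.38, adjusted p = 0.032). The second call was lost without RFP- MHCIIhi replicate 2 (1.00), 3 (1.03) or 4 (0.77), without RFP+ MHCIIhi replicate 1 (0.77) and with limma-voom (1.04). Ffar3, a related receptor, and Cd22, a B cell lectin, were near or below 1 CPM in MHCIIlo. Ffar3 had a log2 difference of 0.48 (adjusted p = 0.47) there and Cd22 of 1.34 (adjusted p = 0.032), a call lost without RFP- MHCIIlo replicate 1 or 4 or RFP+ MHCIIlo replicate 1, 2 or 3 (1.13 to 1.22) and with limma-voom (1.02). In MHCIIhi, Ffar3 (-1.04, adjusted p = 0.034) and Cd22 (-0.74, adjusted p = 0.032) were lower with the label. The call of Ffar3 was lost without RFP- MHCIIhi replicate 1, 2 or 4 or RFP+ MHCIIhi replicate 1, 3 or 4 (-1.10 to -0.82) and with no filter on low counts (-1.02). That of Cd22 was lost without RFP- MHCIIhi replicate 2 or RFP+ MHCIIhi replicate 2, 3 or 4 (-0.72 to -0.57). B cell marker sums were 0.756 to 2.74 CPM in RFP+ MHCIIlo against 1.28 to 1.78 CPM in RFP- MHCIIlo, and 4.43 to 6.95 CPM in RFP+ MHCIIhi against 6.43 to 7.94 CPM in RFP- MHCIIhi, and their part in the values of Cd22 was not tested.

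Further out, Hamp, the iron hormone hepcidin 151 kb from the span, averaged 159 ± 47.1 CPM in RFP+ MHCIIlo against 78.3 ± 8.28 CPM in RFP- MHCIIlo, with 134 ± 9.20 CPM in RFP+ MHCIIhi against 44.1 ± 3.38 CPM in RFP- MHCIIhi. It was higher with the label by 1.03 (SE 0.14, adjusted p = 1.0e-06) in MHCIIlo and by 1.60 (SE 0.14, adjusted p = 1.5e-09) in MHCIIhi, and its reads can be shared with the similar Hamp2. Mag, a myelin glycoprotein, was higher in MHCIIlo by 1.21 (SE 0.18, adjusted p = 6.1e-06) and had 0.23 (adjusted p = 0.36) in MHCIIhi. Zbtb32, a zinc finger repressor, was higher by 1.22 (SE 0.30, adjusted p = 0.0014) and 0.87 (SE 0.26, adjusted p = 0.0083). Upk1a, a uroplakin of bladder epithelium, was higher in MHCIIlo by 1.45 (SE 0.42, adjusted p = 0.0054). In MHCIIhi it had -0.55 (adjusted p = 0.039), a call lost without any single MHCIIhi library (-0.59 to -0.38) other than RFP+ MHCIIhi replicate 2. The unnamed gene 2200002J24Rik, at 0.522 ± 0.478 CPM in RFP+ MHCIIlo against 0.128 ± 0.111 CPM in RFP- MHCIIlo, had 1.96 (SE 0.72, adjusted p = 0.021), a call lost without RFP- MHCIIlo replicate 1 (1.63) or 3 (1.79), without RFP+ MHCIIlo replicate 4 (1.09), without RFP+ MHCIIlo replicates 1 and 4 (1.49) and with limma-voom (1.60). In MHCIIhi it had 1.81 (SE 0.38, adjusted p = 3.8e-04).

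Of the 30 neighbours, Gapdhs, Hamp and Fam187b (10.0%) had group means in the order of Sbsn, Dmkn and Krtdap, against 6.45% of all genes. The means of Gapdhs in RFP+ MHCIIlo and RFP+ MHCIIhi, 2.89 and 2.83 CPM, differed by 0.01 on the log2 scale (edgeR adjusted p = 0.97). The neighbours whose levels were most like those of the 3 genes, by the smallest r, were Lsr (0.88), Hamp (0.87) and Fam187b (0.87), below the values of the 10 most alike genes. They were named after their values were seen.

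**Figure D4:**
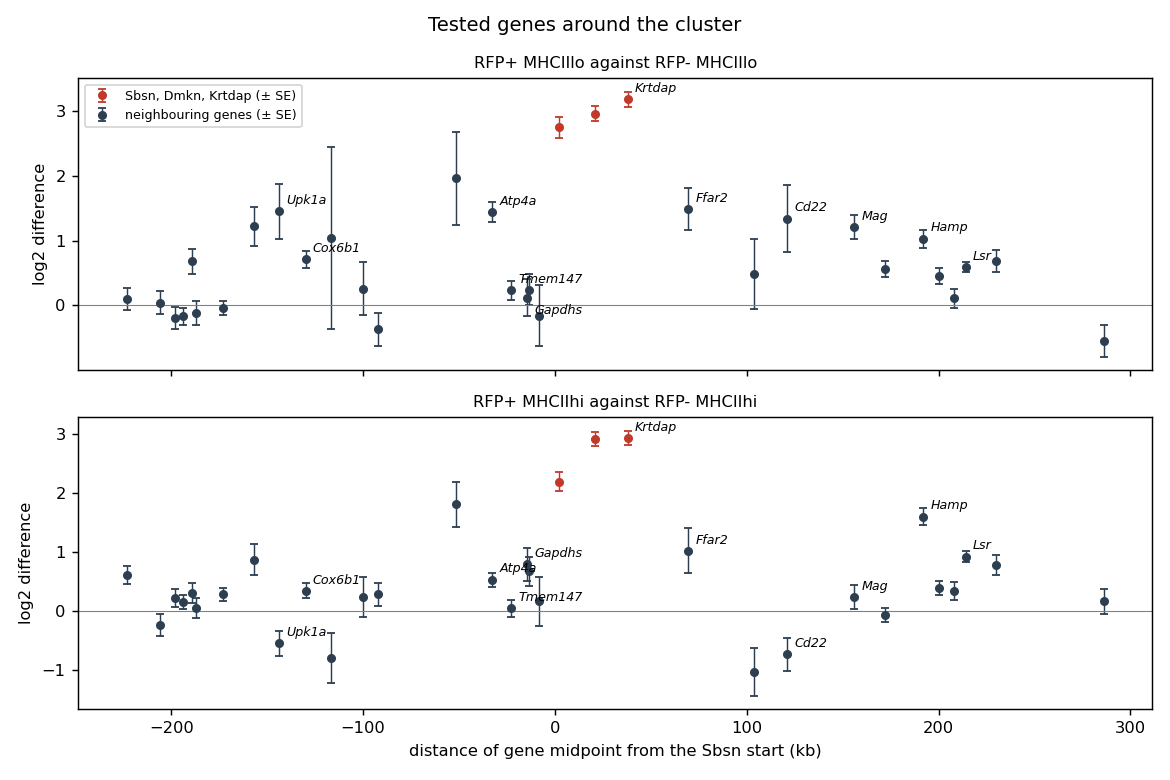
Points are the tested genes around the cluster by the distance of their midpoint from the Sbsn start (x axis, kb), with the log2 difference with the RFP label and its SE, in MHCIIlo cells above and in MHCIIhi cells below. Sbsn, Dmkn and Krtdap, which were selected on these levels, lie at 2.75 to 3.18 in MHCIIlo cells and 2.19 to 2.94 in MHCIIhi cells. The fitted values of all tested neighbours lie below them in both.

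The gates were checked on other genes. Aire averaged 50.8 ± 25.4 CPM in RFP+ MHCIIlo against 37.9 ± 23.5 CPM in RFP- MHCIIlo, with 587 ± 32.5 CPM in RFP+ MHCIIhi against 979 ± 56.1 CPM in RFP- MHCIIhi. The MHC class II gene H2-Aa averaged 961, 1320, 5381 and 4703 CPM in the same order, and population means of Epcam were 343 to 594 CPM. The log2 difference of H2-Aa with the label was -0.46 (SE 0.13, edgeR adjusted p = 0.0065) in MHCIIlo. It was 0.19 (SE 0.13, adjusted p = 0.25) in MHCIIhi. Marker sums of other cell types also moved with the populations. The 4 mesenchymal genes summed to 34.6 to 90.9 CPM in RFP+ MHCIIlo against 290 to 666 CPM in RFP- MHCIIlo. Most of the sum in RFP- MHCIIlo was Dcn, which averaged 376 CPM there and 32.4 CPM in RFP+ MHCIIlo. Of the 4 genes 3 were called lower with the label, against 22.7% of all genes, and Pdgfrb averaged 8.03 CPM with it against 7.19 CPM without it. The 4 tuft cell genes summed to 1703 to 2542 CPM in RFP+ MHCIIlo against 849 to 1361 CPM in RFP- MHCIIlo. In MHCIIhi cells the tuft cell genes summed to 298 to 387 CPM with the label against 72.6 to 87.5 CPM without it. All 4 were called higher with the label in both gates, the direction of Sbsn, Dmkn and Krtdap, with median log2 differences of 1.02 in MHCIIlo and 2.35 in MHCIIhi. Of all genes, 28.9% and 23.8% were called higher in these gates. In RFP+ MHCIIhi the 3 cortical epithelial genes summed to 132 to 225 CPM against 521 to 947 CPM in RFP- MHCIIhi, and the 3 thymocyte genes to 28.8 to 56.7 CPM against 160 to 372 CPM. The 4 myeloid genes summed to 160 to 242 CPM with the label against 94.5 to 133 CPM without it in MHCIIlo. In MHCIIhi they summed to 582 to 602 CPM against 372 to 458 CPM. Most of this sum was Lyz2, which averaged 137 against 78.1 CPM in MHCIIlo and 526 against 372 CPM in MHCIIhi. C1qa had lower means with the label, at 0.979 against 1.18 CPM and 2.92 against 4.02 CPM. Of the 4 myeloid genes, 3 were called higher in MHCIIlo and 2 in MHCIIhi, and the rest were not called. Ptprc, the gene of CD45, was higher with the label in MHCIIlo by 0.79 (SE 0.18, edgeR adjusted p = 8.3e-04). In MHCIIhi it was lower (-1.45, SE 0.17, adjusted p = 2.2e-07). No listed marker was at 0 in any population, and the part of these cells in the values of Sbsn, Dmkn and Krtdap was not tested. Between 19400 and 20500 cells were sorted for each RFP+ MHCIIlo library and 80500 to 164000 for each of the others, so cell number cannot be told apart from that population.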

How the data were processed

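RNA was measured in 16 libraries of sorted mTEC, 4 per population, each from 12 pooled thymi. Per the labels' protocols, poly(A) RNA was turned into libraries by NuGen Ovation V2 amplification and Nextera XT. The authors deposited raw counts per Ensembl gene. STAR, GRCm38 and DESeq2 are named in the submitters' processing notes. Not given in the sources used here are the annotation release, the counter and the handling of strand. Library totals were 7.93 to 19.46 M counts (median 13.28 M). Symbols and coordinates were matched from GENCODE M21 (42462 of 43432 identifiers).

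Genes were filtered with filterByExpr (minimum count 10, total 15), leaving 19617, scaled by TMM and fitted over all 16 libraries in 1 quasi-likelihood model with a mean per population (edgeR 4.0.16, R 4.3.3, prior count 2 for log2 levels). Benjamini-Hochberg adjustment of the p-values ran over all genes of a comparison, with a threshold of 0.05 and two-sided tests. Alternatives were DESeq2 1.42.0, limma-voom (limma 3.58.1), other scaling, no filter, only the compared populations, a replicate block, leaving out each library, a window of 100 kb, Spearman's rho and a prior count of 0.5. Libraries of a population differed by more than counting noise (chi-square per degree of freedom 3.178 to 36.78 over 24 pairs), and p-values measure the spread between these pools.

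The 3 genes and all lists were chosen with earlier results of these data known. The lists hold 34 late differentiation genes, 18 secreted suprabasal genes (for secreted or shed proteins), 20 regulators and 13 basal genes, of which 33, 17, 20 and 13 were tested, and markers of other cell types. Genes named beside the 3 were 16 fixed sentinels of the lists, the 3 nearest tested protein-coding neighbours on each side and other neighbours within 250 kb called in RFP+ MHCIIlo against RFP- MHCIIlo with an absolute log2 difference over 1, the 10 genes of highest likeness (predicted genes passed over) and gate markers.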

Additional observations from a re-analysis of the deposited data

Results flagged for a closer look

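Among 172 sets of 4 libraries (a named gene in a population), 13 had a library further from the others than Dixon's test at the 95% level allows, where chance gives about 1 in 20. Of the 3 clustered genes only Dmkn had one, at 174 CPM in RFP+ MHCIIhi replicate 1. The same library was highest for Ffar2 (2.65 CPM), Lypd3 (40.4 CPM) and Krt5 (311 CPM). RFP+ MHCIIlo replicate 1 was highest for Wfdc5 (10.5 CPM) and Calm4 (218 CPM), and RFP- MHCIIlo replicate 1 for Lor (6.48 CPM), Ano9 (14.7 CPM) and Krt80 (12.4 CPM). Ano9 was also highest in RFP+ MHCIIlo replicate 2 (73.3 CPM) and lowest in RFP+ MHCIIhi replicate 4 (21.6 CPM). Cd22 was lowest in RFP+ MHCIIlo replicate 4 (0.166 CPM), and Ptprc, the gene of CD45, was highest in RFP+ MHCIIlo replicate 3 (45.3 CPM).

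The difference with the RFP label in MHCIIlo minus that in MHCIIhi was called by edgeR for 19 of 40 named genes, which were chosen with results of these data known, against 34.1% of all genes. For Sbsn, Dmkn and Krtdap it is given as a value only. Among the neighbours of the cluster it was 0.90 for Atp4a, 2.08 for Cd22, 2.00 for Upk1a, 0.98 for Mag and -0.57 for Hamp on the log2 scale. The Cd22 call was lost with limma-voom (1.74) and the Hamp call without RFP- MHCIIlo replicate 2 (-0.51). Among late differentiation and secreted genes it was 1.50 for Ivl, 2.37 for Lor, 1.59 for Slurp1, 1.10 for Cst6, 3.07 for Wfdc5 and -1.10 for Spink5. Among regulators it was 1.00 for Grhl3 and 1.35 for Ovol1, and among basal genes -2.02 for Krt5, -2.34 for Krt14 and -1.86 for Trp63. Among gate markers it was -0.65 for H2-Aa and 2.24 for Ptprc. For Ano9 it was 0.54, a call lost without any of 7 single libraries, with values of 0.41 to 0.51. These were RFP+ MHCIIlo replicate 2, RFP- MHCIIlo replicates 2, 3 and 4, RFP+ MHCIIhi replicate 4 and RFP- MHCIIhi replicates 1 and 2.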

How the results depend on the processing

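The log2 differences of Sbsn, Dmkn and Krtdap moved by less than the spread between libraries under every alternative run. In MHCIIlo cells the difference with the label ranged over 2.57 to 2.88 for Sbsn, 2.90 to 3.06 for Dmkn and 3.07 to 3.28 for Krtdap. The difference of differences ranged over 0.38 to 0.69, -0.09 to 0.14 and 0.14 to 0.34, so that of Dmkn has no stable sign. The number of neighbours called with the label in MHCIIlo was 14, and 4 in the 100 kb window, which holds fewer genes. In that window it was 7 in MHCIIhi, 6 for RFP+ MHCIIlo against RFP+ MHCIIhi, 9 for RFP- MHCIIlo against RFP- MHCIIhi and 2 for the difference of differences. Of all genes, 51.6% were called in MHCIIlo and 45.0, 55.6, 69.1 and 34.1% in the other comparisons, in this order. Leaving out single libraries gave 10 to 17 called neighbours in MHCIIhi (16 with all) and 6 to 11 for the difference of differences (7 with all), and the cause was not tested. With Spearman's rho, 2 of the 10 most alike genes remained. The fitted difference of Gapdhs in MHCIIlo ran from -0.21 to 0.36 with single libraries left out and was -0.00 with limma-voom, and that of Tmem147 in MHCIIhi ran from -0.03 to 0.12 (-0.00 without RFP- MHCIIhi replicate 1), with no call. Sprr2a1 and 1 listed symbol that was not matched gave no value.

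Replicate numbers were shared between populations, and the labels do not say that a number marks a shared pool or day. Deviations of same-numbered libraries had r of -0.02 to 0.13 (median 0.06) over 24 pairs, against a median of -0.02 for different numbers. Of the 24 pairs 4 were over 0.1, and 7 of 16 libraries matched their own number best in every other population. This is a hint of a shared factor from the data and not the design. As the labels give no pairing, the libraries were not taken as paired in the main fit. With the replicate block, the differences in MHCIIlo were 2.73 (SE 0.11), 2.97 (SE 0.08) and 3.18 (SE 0.09) for Sbsn, Dmkn and Krtdap. Their SE without the block were larger, at 0.16, 0.12 and 0.12. With the block 10223 genes were called, against 10129 without it. Wording on low-count neighbours (Ffar3, Cd22, 2200002J24Rik) is limited by their few reads.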
